A study of Homo sapiens with 11 samples.

Results

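The genes described here encode the proteins of the cytosolic ribosome. They were the RefSeq GRCh38 protein-coding genes whose symbols have the form RPL or RPS with a number, or RPLP0, RPLP1 and RPLP2, and each was taken as its gene body with 1 kb on either side. The rule found 76 of 20033 protein-coding genes: 43 genes of the large subunit (RPL), 3 of the P stalk (RPLP) and 30 of the small subunit (RPS), on 21 chromosomes. No measured value entered the rule. The windows were 3335 to 29723 bp long, with a median of 6905 bp against 26280 bp for the other protein-coding genes, and 35 of the 76 windows overlapped another protein-coding gene. A start site with its strand was given by RefSeq GRCh38.p14 for 61 of the 76 genes. The other 15 genes were used only as whole windows.

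The study compared 92-1 cells, an established line from a uveal melanoma (a melanoma of the eye), after 4 h with the solvent DMSO or with FHT-1015. FHT-1015 inhibits SMARCA4, also called BRG1, and SMARCA2, the alternative ATPases of the BAF complexes that move nucleosomes. Chromatin was fixed, sonicated and precipitated with antibodies to acetylated lysine 27 of histone H3 (H3K27ac, a mark of active promoters and enhancers), to SMARCA4, and to MITF, TFAP2A (AP-2 in the titles) and SOX10, transcription factors of pigment cells and of the neural crest. There was 1 library per antibody and condition, and a DMSO input library that was not used here as a sample of its own. Both conditions shared the cell line and the time of treatment.

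Ribosomal proteins surround the ribosomal RNA in fixed numbers, and their genes are among the most actively transcribed in growing cells. In vertebrates the transcripts of these genes begin with a C followed by a run of pyrimidines, the 5′ terminal oligopyrimidine tract, through which mTOR and LARP1 control their translation. The genes are used in most cell types and belong to no pigment cell programme, so that here they serve as a housekeeping reference for the 5 antibodies.

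All 7 pigment cell lineage genes examined (MITF, SOX10, PMEL, MLANA, TYR, TYRP1 and DCT) had an H3K27ac peak in their window in both conditions. Over all protein-coding genes the share was 67.9% in DMSO and 66% in FHT-1015, so that presence alone separates cell types little. Of 6 genes that mark other cells, PTPRC and MYH7 had one in DMSO and PTPRC in FHT-1015, while EPCAM, PECAM1, COL1A1 and ALB had none in DMSO. The narrow peak lists held 33268 (SOX10 in FHT-1015) to 142667 (TFAP2A in DMSO) peaks. The SOX10 list of FHT-1015 stood apart: it was the shortest, against 103379 SOX10 peaks in DMSO, and it was the one list whose peak values did not come out as whole reads at the summit (2.33% of the peaks at the starts examined, against 100% in the 9 other lists). The file identifiers of both SOX10 libraries also differed in their prefix from those of the other libraries, with no stated meaning. The part of these differences in the SOX10 results was not tested.

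The starts of these genes are shown first because the strongest acetylation and SOX10 peaks of most of them lay there. The 6 promoters printed are those with the strongest (RPL18, RPL27 and RPL38) and the weakest (RPL14, RPS10 and RPS25) SOX10 peak of DMSO within 1 kb of the start. Each runs 5′ to 3′ on the strand of the gene from 100 bases before the start to 20 bases into the first exon, from RefSeq GRCh38.p14, and capitals mark the run of C and T that contains the start. The positions are chr19:48619159-48619278 (minus strand) for RPL18, chr17:42998319-42998438 (plus) for RPL27, chr17:74203578-74203697 (plus) for RPL38, chr3:40457239-40457358 (plus) for RPL14, chr6:34426050-34426169 (minus) for RPS10 and chr11:119018324-119018443 (minus) for RPS25.
RPL18: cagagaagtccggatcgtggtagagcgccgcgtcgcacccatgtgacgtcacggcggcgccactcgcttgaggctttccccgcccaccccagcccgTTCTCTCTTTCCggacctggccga
RPL27: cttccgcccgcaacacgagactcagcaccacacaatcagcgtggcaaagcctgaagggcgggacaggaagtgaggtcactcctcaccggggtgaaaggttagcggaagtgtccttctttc
RPL38: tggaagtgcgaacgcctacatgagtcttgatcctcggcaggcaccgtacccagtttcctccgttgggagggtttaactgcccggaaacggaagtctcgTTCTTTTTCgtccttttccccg
RPL14: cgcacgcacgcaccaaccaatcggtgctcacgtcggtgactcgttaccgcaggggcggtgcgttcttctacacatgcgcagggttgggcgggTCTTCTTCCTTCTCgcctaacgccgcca
RPS10: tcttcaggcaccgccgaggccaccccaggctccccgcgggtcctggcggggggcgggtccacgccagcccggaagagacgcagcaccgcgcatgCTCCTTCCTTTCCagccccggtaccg
RPS25: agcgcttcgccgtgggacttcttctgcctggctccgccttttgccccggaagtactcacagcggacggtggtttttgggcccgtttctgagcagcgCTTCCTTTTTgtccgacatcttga
Runs of 9 to 14 pyrimidines covered the start in 5 of the 6, and the start listed for RPL27 lay in no such run.

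Over all 61 genes with a start, 45 (73.8%) had a start on C followed by at least 4 pyrimidines, against 6.24% of 15842 protein-coding genes with a start. A start on C as such was found in 48 of the 61 genes (78.7%), against 15.0% of all genes. The median run around a start was 11 bases, and the longest was 25. The windows searched for factor motifs held 250 bases before and 50 from the start on, both strands, and their median GC content was 58.7% against 62.3% over all genes. The ETS core CGGAAG was in 39 of the 61 genes (63.9%; 29.7% of all genes), the SP1 core GGGCGG in 35 (57.4%; 64.3%) and the YY1 core AAGATGGC in 6 (9.84%; 4.67%). CACGTG and CATGTG, the E-box forms read by MITF, were in 4 and 5 genes (6.56% and 8.20%), near the shares over all genes (10.9% and 11.5%). The AP-2 form GCCNNNGGC was in 11 (18%, against 33.6%). The SOX forms ACAATG and ACAAAG were in 2 and 5 (3.28% and 8.20%, against 10.6% and 17%). A gene was counted if any of its starts matched, over 76 starts of the 61 genes and 22198 starts of all 15842 genes. These are matches of letters in a short window and no measurement of binding.

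The 4 genes with CACGTG were RPS28, RPL19, RPL13A and RPS19, and their E-boxes are printed because the strongest MITF peak of all 76 windows in DMSO lay over the first of them. In FHT-1015 the strongest was at RPL27, which has no CACGTG in the part searched. They were chosen after these values were seen. The sequences are on the strand of the gene, with CACGTG in capitals, at chr19:8321463-8321515 (plus) for RPS28, chr17:39200033-39200084 (plus) for RPL19, chr19:49487360-49487419 (plus) for RPL13A and chr19:41860388-41860423 (plus) for RPS19.
RPS28: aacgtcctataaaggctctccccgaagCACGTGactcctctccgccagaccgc
RPL19: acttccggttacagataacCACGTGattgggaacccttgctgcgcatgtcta
RPL13A: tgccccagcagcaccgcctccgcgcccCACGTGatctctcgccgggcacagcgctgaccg
RPS19: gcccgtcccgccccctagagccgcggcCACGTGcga
At RPS28 the MITF summit lay 2 bp before the start in DMSO and the E-box began 6 bp before it; the peak had a −log10 p of 199 in DMSO and 145 in FHT-1015. At RPL19 the E-box began 231 bp and the summit lay 217 bp before the start, with values of 78.7 and 65.9. At RPL13A the E-box began 221 bp and the summit 167 bp before the start, with values of 65.4 and 49.4. RPS19, whose E-box lies inside the first exon, had only a weak MITF peak (2.63 and 7.81), with its summit 524 bp before the start. In DMSO the median −log10 p of the MITF start peaks was 72.0 for these 4 genes and 7.33 for the 38 others with one. In FHT-1015 it was 57.6 against 8.11 (43 other genes). The ranges overlapped: 2.63 to 199 against 3.30 to 113 in DMSO, and 7.81 to 145 against 2.53 to 169.5 in FHT-1015. The other form, CATGTG, gave no such difference in medians. In DMSO the median was 7.59 for the 4 genes with it and a start peak, against 8.30 for 38 without it. In FHT-1015 it was 8.48 (5 genes) against 8.03 (42 genes). Over the 11 genes with GCCNNNGGC, all of which had a TFAP2A start peak in both lists, the median −log10 p of that peak was 14.2 in DMSO, below the 18.8 of the 47 genes without it, and 13.4 in FHT-1015, below the 27.4 of 48 genes.

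Peaks of all 5 antibodies were present in the windows of 63 of 76 ribosomal protein genes in DMSO (background 56%) and 66 in FHT-1015 (44.4%). H3K27ac and SOX10 peaks were present at 76 of 76 genes in both conditions. The background over all protein-coding genes was 67.9% in DMSO and 66% in FHT-1015 for H3K27ac, and 77.1% and 54.9% for SOX10. SMARCA4 peaks were at 72 genes in DMSO and 75 in FHT-1015 (background 71.1% and 74.6%), TFAP2A peaks at 74 and 75 (82.5% and 82.3%), and MITF peaks at 65 and 67 (69.1% and 69.6%). Few windows lacked SMARCA4 or TFAP2A. RPL14, RPL29, RPL9 and RPS16 had no SMARCA4 peak in DMSO and had one in FHT-1015; RPS23, a protein of the decoding centre, was the reverse. RPL37A had no TFAP2A peak in either list, and RPL34 none in DMSO.

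Within 1 kb of a start, where the windows of all genes have the same form, H3K27ac and SOX10 peaks were at 61 of 61 genes in both conditions. The shares over all genes with a start were 60.7% and 60.6% for H3K27ac, and 65.5% and 42.2% for SOX10. SMARCA4 was at 56 starts in DMSO and 56 in FHT-1015 (background 60.1% and 65.6%). MITF was at 42 and 47 (47.5% and 45.1%), and TFAP2A at 58 and 59 (69.7% and 69.8%). All 5 antibodies had a peak at 40 of the 61 starts in DMSO (background 38.4%) and at 43 in FHT-1015 (29.9%), and 30 genes had all 5 in both lists.

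**Figure D1:**
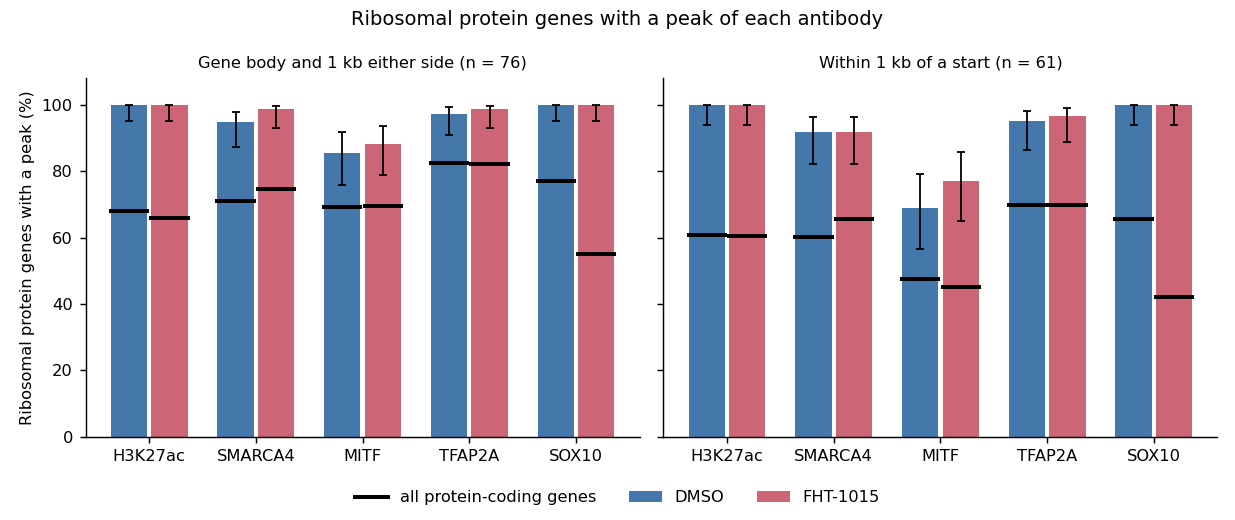
Share of ribosomal protein genes (%) with a narrow peak of each antibody in the gene window (left, 76 genes) and within 1 kb of a start (right, 61 genes) in DMSO (blue) and FHT-1015 (red). Error bars are 95% Wilson intervals over genes, which cover counting error only, and black lines give the share over all protein-coding genes. The SOX10 bars stand at 100% in both conditions and the line for all genes at a start is at 65.5% in DMSO and 42.2% in FHT-1015.

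The starts were also set beside those of 9552 other genes with an H3K27ac start peak in DMSO. Among the latter 97.1% had a SOX10 start peak in DMSO, and 66.1% in FHT-1015, where the ribosomal protein genes had it at 100%. For the other antibodies the 2 sets of acetylated starts were near each other. MITF was at 72.1% of the others in DMSO and 68.9% in FHT-1015 (ribosomal protein genes 68.9% and 77.0%), TFAP2A at 95.7% and 95.7% (95.1% and 96.7%), and SMARCA4 at 86.3% and 92.6% (91.8% and 91.8%).

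The lists go down to a −log10 p of about 2, so that presence includes weak peaks. Counting only peaks with a −log10 p of 10 or more, SOX10 peaks were still at 76 of 76 genes in DMSO (background 60.4%) but at 33 in FHT-1015 (43.4%; background 13.2%). Peaks of MITF at that strength were at 35 genes in DMSO and 33 in FHT-1015 (46.1% and 43.4%; background 46.6% and 33.6%). SMARCA4 peaks of that strength were at 20 and 25 genes (26.3% and 32.9%), below the background of 34.1% and 46.8%. These counts are over whole windows, which are shorter for ribosomal protein genes (median 6905 bp) than for the other genes (26280 bp).

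The factors and the remodeller lay at different distances from the start. SOX10 summits sat on it: the strongest start peak had its summit within 250 bp of the start at 57 of 61 genes in DMSO (93.4%, against 67.1% of 10319 other genes with a SOX10 start peak) and at 52 in FHT-1015 (85.2%, against 62.5% of 6620). The median summit was 18 bp upstream in DMSO and 30 bp downstream in FHT-1015. TFAP2A and MITF summits had medians of 99.5 and 117.5 bp upstream in DMSO, and 42 of 58 (72.4%) and 29 of 42 (69.0%) lay within 250 bp, against 55.6% and 55.5% at other genes. SMARCA4 lay mostly inside the genes, with a median of 573 bp downstream in DMSO and 491.5 bp in FHT-1015. Its summit was within 250 bp of the start at 8 of 56 genes (14.3%) in DMSO, against 30.1% of 9466 other genes, and at 9 of 56 (16.1%; 33.4% of 10338) in FHT-1015. H3K27ac summits fell to both sides of the start, 42.6% of them within 250 bp in DMSO (51.4% at other genes), with the middle part of the genes between 286 bp upstream and 318 bp downstream in DMSO.

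**Figure D2:**
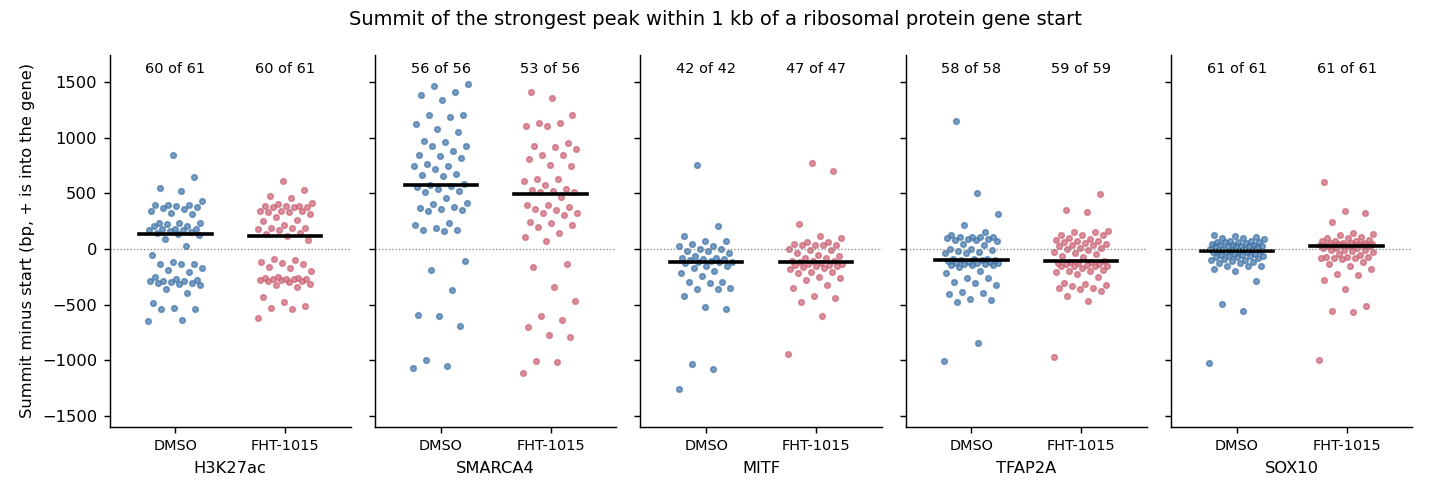
Distance of the summit from the start (bp, positive into the gene) for the strongest peak of each antibody within 1 kb of a ribosomal protein gene start, 1 point per gene, in DMSO (blue) and FHT-1015 (red). Black lines are medians over all points, and the numbers at the top give the points drawn (within 1500 bp) of all points. SOX10 points crowd at 0, and most SMARCA4 points lie above it.

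Acetylation covered these genes broadly and in both conditions to nearly the same length. H3K27ac peaks covered 337 kb of the 633 kb of windows in DMSO (53.2%) and 342 kb in FHT-1015 (54.0%), a ratio of 1.01, with a mean fold of the peaks over the caller's background of 9.34 and 13. The other protein-coding genes, whose windows are longer, had 3.64% and 2.93% of them covered, a ratio of 0.804. Within 1 kb of a start the ratios were nearly equal, at 1.04 for the other genes and 1.03 for the ribosomal protein genes. Per gene the covered length ran from 2353 bp over a median of 4310 to 8321 bp in DMSO, and from 2172 over 4218 to 8311 bp in FHT-1015. It was longer in FHT-1015 at 42 genes and shorter at 30; the background of longer genes was 39.7%. The start peak was 3698 bp wide at the median in DMSO and 3845 bp in FHT-1015, against 1495 and 1672 bp at the other genes. A single peak held the whole gene body at 14 genes in DMSO and 12 in FHT-1015; over all protein-coding genes, whose windows are longer, the share was 0.749% and 0.679%.

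The strongest acetylation was at RPL3, whose product borders the peptidyl transferase centre, with a −log10 p of 333 in DMSO and 376 in FHT-1015. That peak spanned chr22:39313284-39321659 and 89.4% of the RPL3 window was covered in DMSO. RPL7 (318 and 387) and RPS14 (255 and 358) followed. The lowest values were those of RPL11, which with RPL5 binds MDM2 outside the ribosome (63.5 and 109), RPL36A (62.7 and 148) and RPS4X (55.4 and 114). Even the weakest start peak of DMSO, at RPS4X, ranked above 82.6% of its list. The values of DMSO and FHT-1015 come from separate lists and are not a measure of change. Among the smallest ratios of covered length were those of RPS16 (3944 to 2891 bp, 0.733), RPL18 (4835 to 3721 bp, 0.770), RPL22 (0.786) and RPS24 (7024 to 5673 bp, 0.808). It was largest at RPL24 (2645 to 3780 bp, 1.43), RPL7 (2936 to 4136 bp, 1.41), RPS15A (1.28), RPL36 (1.23) and RPL37 (1.19). All 73 H3K27ac peaks within 1 kb of a start were retained, that is, shared at least 1 bp with a peak of FHT-1015 (95% Wilson interval 95% to 100%), against 93.3% of 13090 such peaks of other genes.

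SOX10 peaks stayed at every gene but were shorter and fewer. Their covered length was 160 kb in DMSO and 95.2 kb in FHT-1015, a ratio of 0.595 with mean folds of 4.26 and 3.18. At the other protein-coding genes the ratio was 0.268. Per gene the length went from 694 over 1906 to 5397 bp in DMSO and from 187 over 1145 to 3893 bp in FHT-1015, so that the ranges overlapped widely. The length was shorter in FHT-1015 at 70 of 76 genes, close to the background of 95.1% of covered genes. The 6 genes with more SOX10 cover in FHT-1015 included RPS7 (802 to 1294 bp), RPL36 (2143 to 2759 bp), RPS4X (1078 to 1291 bp), RPL29 (974 to 1135 bp) and RPS2 (2813 to 3224 bp). They were named after their values were seen. The smallest ratios were at RPL9 (1389 to 187 bp) and RPS10 (2135 to 460 bp).

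The strongest SOX10 peaks of DMSO in these windows were at RPL18 (−log10 p 93.6 in DMSO, and 21.2 for the strongest peak in FHT-1015), RPL27 (64.2 and 32.0) and RPL41, the gene of the shortest ribosomal protein (62.8 and 24.4). The RPL41 peak lay at chr12:56117802-56118644, in a window shared with ZC3H10. Among the weakest were those at RPS10 (12.4 and 4.94) and RPS25 (12 and 5.08). Start peaks ranked high in both SOX10 lists, between the percentiles 67.3 and 98.0 in DMSO (median 87.6) and between 19.1 and 96.8 in FHT-1015 (median 81.8). The median start peak was 933 bp wide in DMSO and 554 bp in FHT-1015, against 653 and 337 bp at the other genes.

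Of 280 SOX10 peaks in the windows 166 were retained (59.3%, 53.4% to 64.9%), against 21.6% at the other protein-coding genes. At least 1 peak was kept at 76 of 76 genes, and all were kept at 19; the background over genes with a SOX10 peak in DMSO was 61.5% and 13.3%. The share was 74.7% (71 of 95; 65.2% to 82.4%) within 1 kb of a start and 47.4% (63 of 133; 39.1% to 55.8%) elsewhere in the windows, where 12.5% were kept at other genes. The strongest lost peak was inside RPS24, at chr10:78043251-78044101, with a −log10 p of 35.2; RPS24 lost 7 of 9 SOX10 peaks. RPL19 (24.5), RPS19 (17) and RPS3A (10.0) also held lost peaks with a −log10 p of 10 or more. The share depended on the lists compared: limited to peaks with a −log10 p of 10 or more it was 32.7%, and with the DMSO list limited to as many peaks as the FHT-1015 list it was 96.1%. The covered ratio of peaks that strong was 0.269.

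TFAP2A covered more of these genes in FHT-1015 than in DMSO. The length was 87.6 kb in DMSO and 114 kb in FHT-1015, a ratio of 1.30 with mean folds of 6.49 and 6.73, against a ratio of 0.910 at the other protein-coding genes. It was longer at 61 of 76 genes and shorter at 14, and the background of longer genes was 49.7%. The median ratio over the 74 genes with cover in DMSO was 1.30, and the longest cover was 2774 bp in DMSO and 3989 bp in FHT-1015. The largest ratios were at RPS15A (267 to 1020 bp), RPL29 (530 to 1780 bp) and RPS4X (269 to 895 bp), and RPL39 (1611 to 1014 bp) had one of the smallest.

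The strongest TFAP2A peaks were at RPS16 (−log10 p 233 in DMSO and 232 in FHT-1015; summit 123 bp upstream), RPS10 (215 and 205; 130 bp upstream), whose protein is ubiquitinated when ribosomes collide, and RPL36A (199.6 and 216; 112 bp upstream). Of the 3 starts printed for their weak SOX10 peaks, RPS10 and RPS25 had TFAP2A start peaks of 215 and 157, and RPL14 one of 7.83. Among the weakest TFAP2A peaks were those at RPS15A (4.16) and RPS7 (3.93). Of 174 peaks, 158 were retained (90.8%, 85.6% to 94.3%), against 60.6% at other genes, and 62 of the 74 genes with a peak kept all (background 39.5%). There were 53 FHT-1015-only peaks, 26.8% of the FHT-1015 peaks in these windows, against 32.6% at other genes. Strong ones were in the windows of RPL28 (−log10 p 12), RPL29 (11.2), RPS16 (9.56) and RPL10 (8.84). The strongest lost peak was at RPL22 (14.5).

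MITF had the fewest peaks and the least cover of the 5 antibodies in these windows. Its peaks covered 45.7 kb in DMSO and 50.8 kb in FHT-1015, a ratio of 1.11 with mean folds of 4.90 and 4.70, against 0.825 at other genes. Of 72 genes with MITF cover in either list, 42 had more in FHT-1015, and the background was 42.6%. The highest −log10 p was at RPS28 (199, fold 32.5), followed by RPS24 (115; 22 in FHT-1015) at chr10:78043179-78043904 and RPL27 (113; 169.5 in FHT-1015). The RPS24 peak lay away from the start and overlapped the strongest lost SOX10 peak. The weakest MITF peaks were at RPL27A (3.30), RPS15A (2.87) and RPL4 (2.71).

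Among the large subunit genes RPL5, RPL12 and RPL28 lost every MITF peak, and among the small subunit genes RPS20, RPS21, RPS23 and RPS26 did. Of these, RPL12, RPL28 and RPS26 had another MITF peak in FHT-1015 that did not overlap the DMSO peak. Their cover in DMSO and FHT-1015 was 317 and 92 bp, 190 and 229 bp, and 53 and 253 bp. The genes with MITF peaks in FHT-1015 alone included RPL26, RPL30, RPL37A, RPS6 (the substrate of S6 kinase), RPS16 and RPS27A, which is made as a fusion to ubiquitin. RPL9, RPL34, RPS25 and RPS4X had none in either list. Of 120 peaks, 79 were retained (65.8%, 57.0% to 73.7%), against 41.0% at other genes. The 50 FHT-1015-only peaks were 38.5% of the FHT-1015 peaks, against 57.5% at other genes. Among the strongest of them were those in the windows of RPL23A (17.6), RPS16 (12.2), RPS6 (10.5) and RPL37 (10.0). The strongest lost peaks were at RPL6 (14.8), RPL5 (13.4) and RPS27 (10.4).

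SMARCA4 peaks were low at these genes. The median fold of the start peak was 3.38 in DMSO and 3.57 in FHT-1015, against 3.83 and 5.01 at other genes with a start peak. Their covered length was 116 kb in DMSO and 115 kb in FHT-1015, a ratio of 0.991 with mean folds of 3.13 and 3.41, whereas it was 1.09 at the other genes. Near the starts the ratio was 1.00 for the ribosomal protein genes (40.95 and 41.0 kb) and 1.44 for the others. Among peaks with a −log10 p of 10 or more the ratio was 1.46. Cover was longer in FHT-1015 at 43 of 76 genes, below the background of 67%. The strongest SMARCA4 peaks were at RPL35 (−log10 p 20.3 in DMSO and 10.75 in FHT-1015), RPL7 (19.2 and 33) and RPL38 (15.5 and 8.18), which in mice is needed for translation of Hox transcripts. The weakest were at RPL34 (3.33), RPS23 (2.79) and RPS26 (2.49).

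Of 229 SMARCA4 peaks, 162 were retained (70.7%, 64.6% to 76.3%), against 58.5% at other genes. Within 1 kb of a start the order was the opposite: 83 of 105 (79.0%, 70.3% to 85.7%) were retained, against 88.0% of 15939. Elsewhere in the windows it was 58.1% against 46.2%. RPL11, RPL21, RPL27, RPS4X and RPS23 lost every SMARCA4 peak of DMSO, in that none overlapped a peak of FHT-1015. All but RPS23 had other SMARCA4 peaks in FHT-1015. Cover in DMSO and FHT-1015 was 427 and 521 bp at RPL11, 622 and 194 bp at RPL21, and 664 bp in both at RPL27. RPS4X had 1 peak in DMSO and 4 others in FHT-1015 (274 and 1337 bp), and RPS7 had 871 and 2771 bp. The 56 FHT-1015-only peaks were 27.3% of the FHT-1015 peaks in these windows, against 42.05% at other genes. The strongest were at RPS13 (10.7), RPS7 (9.88), RPS2 (8.69), RPS4X (8.41) and RPS9 (8.30).

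**Figure D3:**
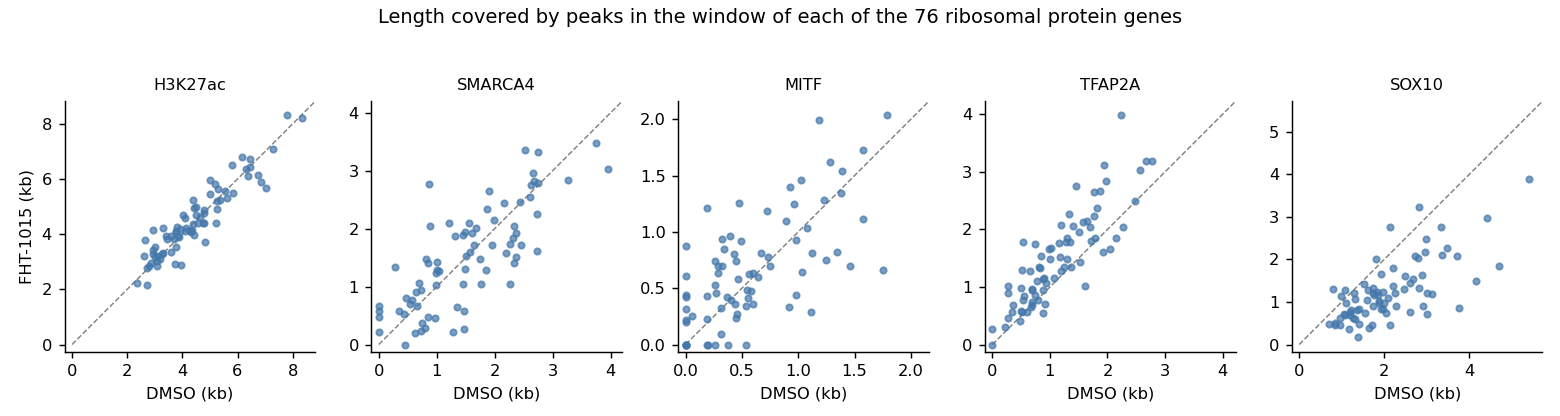
Length covered by peaks (kb) in the window of each ribosomal protein gene in FHT-1015 (vertical) against DMSO (horizontal), 1 panel per antibody and 1 point per gene. The dashed line marks equal lengths. H3K27ac points follow it, 61 of 76 TFAP2A points lie above it, and 70 of 76 SOX10 points lie below it.

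Peaks of these genes were retained more often than those of other protein-coding genes, with the exception of SMARCA4 at the starts. The difference over whole windows was 37.7 percentage points for SOX10. It was 30.2 points for TFAP2A, 24.8 for MITF, 20.2 for H3K27ac (83.3% against 63.2%) and 12.2 for SMARCA4. Counted within deciles of the DMSO −log10 p, it was 36.5, 28, 28.1, 15.6 and 14.1 points in that order. Among peaks with a −log10 p of 10 or more it was 21.2 points for SOX10, 35.8 for TFAP2A, 29.6 for MITF, 15.3 for H3K27ac and 2.32 for SMARCA4. Within 1 kb of a start the difference was counted within deciles of the DMSO −log10 p, over peaks of any strength. It was 17.3 for SOX10, 10.0 for TFAP2A, 17.9 for MITF, 1.65 for H3K27ac and −6.61 for SMARCA4. No interval was computed within deciles. A retained peak needs only 1 shared bp, and the deciles match strength alone. For each antibody FHT-1015 peaks covered more of the windows of ribosomal protein genes than of other genes. The cover was 15.03% against 0.5605% for SOX10 and 53.96% against 2.93% for H3K27ac. Their DMSO peaks were also wider (SOX10 median 480.5 against 341 bp). The differences were not recomputed with a longer overlap, and the part of cover and width in them was not tested. Without deciles the MITF difference at the starts was 12.8 points, with an interval from −0.21 to 21.3. With 1 library per group there are no replicates, so that no test was possible; the intervals cover counting error over peaks, not the variation between cultures.

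**Figure D4:**
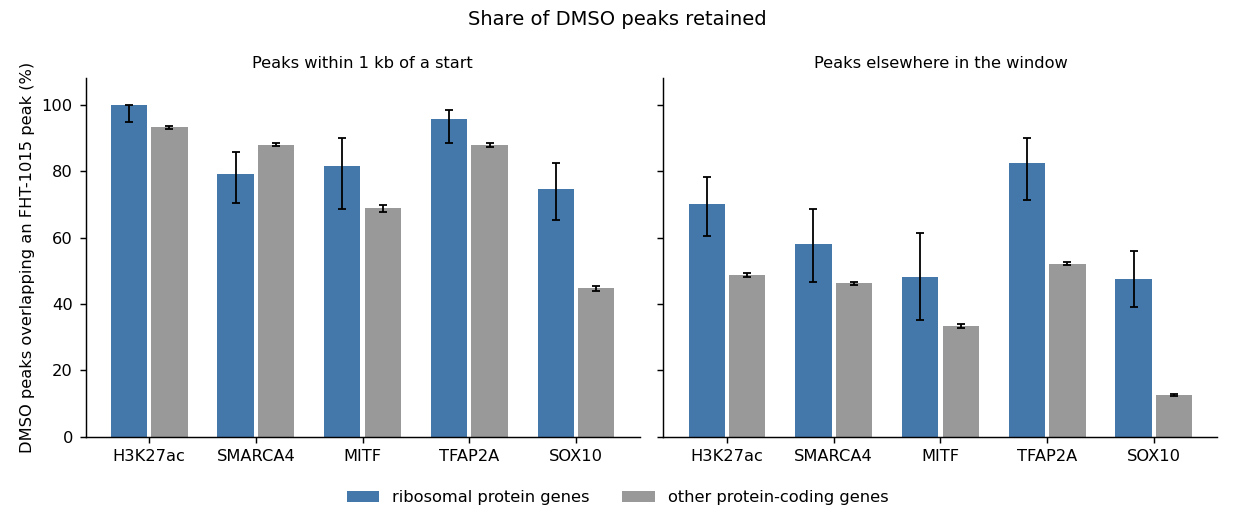
Share of DMSO peaks (%) with an overlapping peak of that antibody in FHT-1015, within 1 kb of a start (left) and elsewhere in the gene window (right), for ribosomal protein genes (blue) and other protein-coding genes (grey). Error bars are 95% Wilson intervals over peaks. The blue bar is the higher of each pair apart from SMARCA4 at the starts (79.0% against 88.0%).

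Lost and FHT-1015-only peaks were mostly weak. For H3K27ac, 34 of 204 peaks were lost, against 17179 of 46626 at the other genes, and the strongest lost was at RPS14 (−log10 p 11.6). FHT-1015-only H3K27ac peaks numbered 27, 14.2% of the FHT-1015 peaks, against 18.8% at other genes. The strongest were at RPL10 (7.58), RPL36 (7.15), RPL32 (7.03), RPL15 (5.68) and RPS7 (5.24). SOX10 had 41 FHT-1015-only peaks, 18.2% of its FHT-1015 peaks, against 30.8% at other genes. None had a −log10 p of 10 or more, such as those at RPL36 (6.46), RPL34 (6.28) and RPL10A (5.89). Of the 63 genes with peaks of all 5 antibodies in DMSO, 52 kept at least 1 peak of each (background 60.9%). RPL41, RPS13 and RPLP2, 3 of the 63 (background 3.09%), kept all of them.

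The 95% intervals of the subunits overlapped for every antibody. SOX10 peaks were retained at 62.3% (54.5% to 69.4%) in the large subunit and 53.5% (44.4% to 62.4%) in the small subunit genes, and 6 of 7 were in the P stalk genes. TFAP2A retention was 87.3% (79.4% to 92.4%) and 95.3% (87.1% to 98.4%), and MITF retention 70.3% (59.1% to 79.5%) and 56.1% (41.0% to 70.1%). The TFAP2A covered ratio was 1.25 in the large subunit, 1.38 in the small subunit and 1.42 in the P stalk, which recruits translation factors. RPLP0, RPLP1 and RPLP2 had H3K27ac start peaks of −log10 p 129, 130 and 218 in DMSO and 209, 247 and 290 in FHT-1015. Their SOX10 cover was 2680, 2201 and 1729 bp in DMSO and 1543, 1800 and 1323 bp in FHT-1015.

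**Figure D5:**
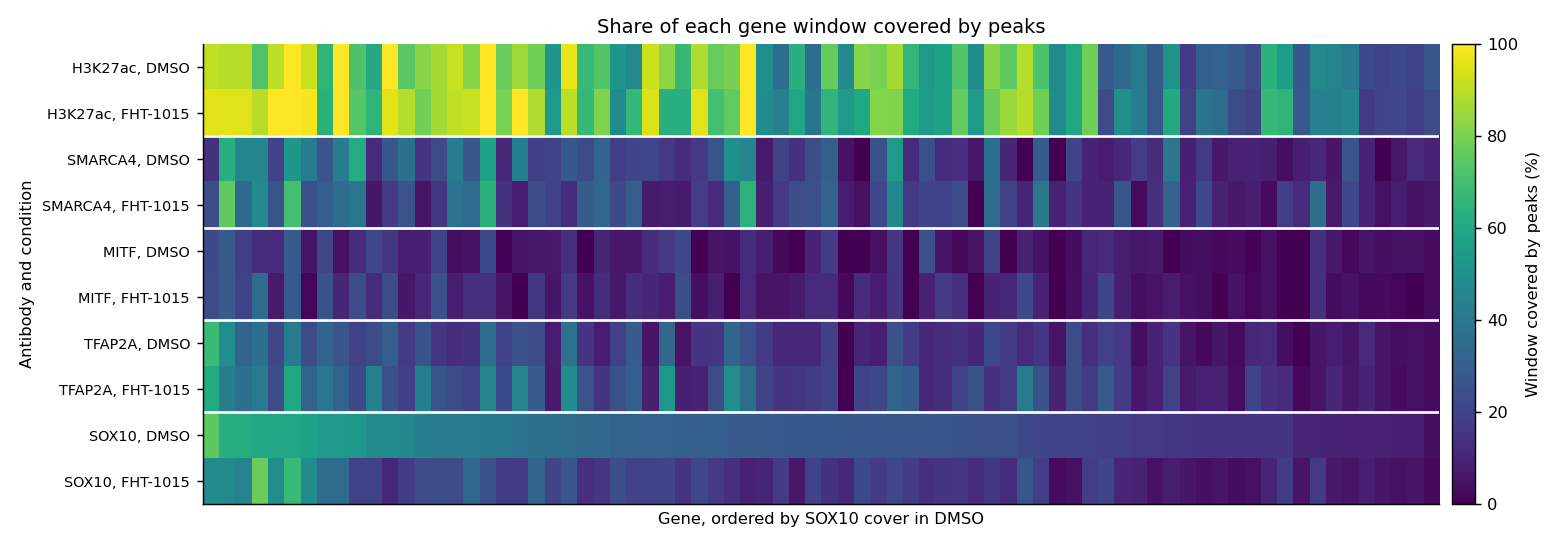
Share of each gene window covered by peaks (%, colour scale from 0 to 100) for the 76 ribosomal protein genes (columns, ordered by SOX10 cover in DMSO) and the 10 lists (rows). The order runs from RPL41 (74.8%) to RPL31 (4.29%), and H3K27ac covers up to 100% of a window.

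Peaks of different antibodies lay over one another at these starts. In DMSO 98.6% of 73 H3K27ac start peaks overlapped a SOX10 peak (85.2% of 13100 at other genes), and in FHT-1015 65 of 67 did (97.0%, against 52.5% of 11464). TFAP2A start peaks overlapped SOX10 at 98.6% in DMSO (75.3% at other genes) and at 91.5% in FHT-1015 (65 of 71; 40.4%). All 105 SMARCA4 start peaks of DMSO and all 93 of FHT-1015 overlapped H3K27ac, against 80.8% and 77.5% at other genes. H3K27ac itself covered 87.5% of these start windows in DMSO, against 36.1% at other genes, so that most peaks there would overlap it. Overlap of SMARCA4 with TFAP2A was 52.4% in DMSO, against 76.5% at the others. It was also lower for SOX10 peaks with TFAP2A (69.5% against 84.95%) and for MITF peaks with SMARCA4 (53.1% against 70.5%). In FHT-1015 SOX10 peaks overlapped SMARCA4 at 65.1%, against 80.8%.

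Related genes were described in the same way. The 77 mitochondrial ribosomal protein genes, which are as widely used but have no common pyrimidine tract, had SOX10 peaks at 77 windows in DMSO and 67 in FHT-1015. They retained 53.2% of SOX10, 79.5% of TFAP2A, 64.6% of MITF, 67.9% of SMARCA4 and 81.3% of H3K27ac peaks. The TFAP2A and SOX10 shares lay below the intervals of the cytosolic genes, for SOX10 just under the lower bound of 53.4%. These were whole windows, of 1574 kb in sum against 633 kb for the cytosolic genes. Within 1 kb of a start the mitochondrial genes kept 70.7% of SOX10 and 87.1% of TFAP2A peaks. There the SOX10 share lay inside the interval of the cytosolic genes (65.2% to 82.4%), and the TFAP2A share below it (88.45% to 98.6%). SOX10 cover in the mitochondrial windows was shorter at 76 of 77 genes, with a ratio of 0.439. The 16 translation genes with pyrimidine tract transcripts, such as EEF1A1, EEF2 and NPM1, had SOX10 peaks at all 16 in both lists and kept 31 of 76 (40.8%, 30.4% to 52.0%). They retained 79.2% of SMARCA4 and 67.3% of MITF peaks, above the shares of the ribosomal protein genes, and 61.1% of H3K27ac and 81.5% of TFAP2A peaks, below them. A start was given for 10 of them, and within 1 kb of it 13 of 19 SOX10 peaks were kept (68.4%, 46.0% to 84.6%). All 16 TFAP2A peaks there were kept. FAU, RPSA and RACK1, ribosomal components outside the naming rule, had SOX10 peaks in both conditions. Of 8 paralogs, RPL10L alone had no H3K27ac peak in either list, and 8 of 16 SOX10 and 10 of 11 H3K27ac peaks of the set were retained. No test of a difference between these sets was made.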

How the data were processed

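ChIP-seq peak lists of 10 immunoprecipitated libraries were used, 1 per antibody and condition. The submitters' processing notes name BWA, SAMtools, Picard, MACS2 and hg38; settings, control and the handling of reads that match several places, such as processed pseudogenes, are not given in the sources used here. The deposited lists give, per peak, a fold (a ratio over the caller's background), a −log10 p and a −log10 q, and a summit position (an offset in bp), all the authors' own values, called per library without pooling. They served only for description and ranking inside 1 list. The deposited score was not used. Narrow lists were the main data; the 4 broad lists were an alternative.

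Peaks were joined to RefSeq GRCh38.p14 gene extents and starts (Python 3.11.15, numpy 2.4.6, pandas 2.3.3, scipy 1.17.1, matplotlib 3.10.9), with an overlap of at least 1 bp and coordinates counted from 1. Exons and introns were not analysed here. A peak in a member window was left out of the other genes. Intervals are 95% Wilson intervals. The overlap code was tested on simulated data. Depth is known at the summit: where the fold and p gave a whole read count within 0.002, start peaks had medians of 19 (SMARCA4) to 128.5 reads (H3K27ac) in DMSO. No result has a test, since each group is 1 library.

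The members, gene lists and comparisons were chosen with earlier results of these data known. Named genes are the 3 highest and 3 lowest per antibody by −log10 p in DMSO, the 5 smallest and 5 largest H3K27ac ratios, genes without a peak where at least 90% have one, genes with all peaks lost or, beyond 10, the 5 strongest, and genes that kept all peaks. Genes named for another covered ratio, for their strongest lost peak, for an E-box or as the P stalk were chosen after their values were seen. Some genes that this rule names are not reported here.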

Additional observations from a re-analysis of the deposited data

How the results depend on the processing

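No paired analysis was possible because each group held 1 library and its replicate number is only a name; for the same reason no replicate could be left out. Of the recomputed values, 59 stayed within the interval or within 1.5 times of the reported one, 35 moved further and 5 reversed. At a −log10 p of at least 10 the retained share was 95.4% for H3K27ac, 63.6% for SMARCA4 and 32.7% for SOX10; genes with a peak were 26.3% (DMSO) and 32.9% (FHT-1015) for SMARCA4, 46.1% and 43.4% for MITF and 43.4% for SOX10 in FHT-1015; the covered ratio was 1.46 for SMARCA4 (reversed) and 0.269 for SOX10; and the difference from other genes was 2.32 points for SMARCA4, 35.8 for TFAP2A and 21.2 for SOX10. With q under 0.05 the SOX10 share was 48.1%. With 50% of the peak covered it was 76.5% for H3K27ac, 59.4% for SMARCA4 and 42.1% for SOX10. Lists of equal number gave 93.5% for H3K27ac and 96.1% for SOX10, and broad lists 78.5% for SMARCA4.

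Within 1 kb of a start the retained share was 100% (H3K27ac), 79.0% (SMARCA4), 81.6% (MITF), 95.8% (TFAP2A) and 74.7% (SOX10), the SMARCA4 covered ratio 1.00 (reversed), and the difference 6.67, −8.98 (reversed), 12.8, 7.85 and 30.0 points. Alternatives chosen after seeing the data were starts with deciles of strength, which gave 1.65 (H3K27ac), −6.61 (SMARCA4, reversed), 10.0 (TFAP2A) and 17.3 (SOX10), and starts with H3K27ac in DMSO, which gave 6.67, −10.2 (SMARCA4, reversed), 10.4 (MITF), 5.46 (TFAP2A) and 27.1 (SOX10). The remaining one, members whose window overlaps no other gene, moved no share out of its interval. The cause of these shifts was not tested. The median reads at the summit of start peaks were fewest for SMARCA4 (19 in both lists), and near that for MITF (21 in DMSO and 19.5 in FHT-1015). The SOX10 list of FHT-1015 gave no such value.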
